A study of Homo sapiens with 2 samples.

Results

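The integrated stress response is the pathway by which cells slow translation when proteins misfold in the endoplasmic reticulum, amino acids or heme run short, or double-stranded RNA appears. Kinases phosphorylate the translation factor eIF2, most translation falls, and the mRNA of the transcription factor ATF4 is translated more. ATF4 and its target CHOP (encoded by *DDIT3*) then induce genes of amino acid supply and redox balance and, under lasting stress, of cell death, together with feedback genes that end the response. The regulators described here were *EIF2AK3*, *ATF4*, *DDIT3*, *ATF3*, *ATF5*, *CEBPB*, *NUPR1*, *TRIB3*, *PPP1R15A* and *DDIT4*, chosen by their gene symbols with earlier results of these arrays known, so that every difference below is a description of the same signals that brought the group to attention. Of the 10 genes, 9 had a named row on the array, among 17687 named genes in all. No row was named *ATF5*, and that gene has no value here.

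The arrays compared VMRC-LCD cells, a lung cancer cell line that the study describes as an adenocarcinoma line with neuroendocrine differentiation. Cells of one condition received si-NC, a negative control siRNA, and cells of the other si-*DRAIC*2, an siRNA against the long non-coding RNA *DRAIC*, each at 20 nmol/L with an incubation of 72 h. Both conditions thus carry a transfected double-stranded RNA, and no untransfected cells were analysed here. Total RNA was read on the Human Clariom S microarray. Each condition has 1 array, so no difference has a replicate check, and neither a test nor an error can be given for any value.

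Levels are given as log2 signals in the authors' normalization, and every difference is on that log2 scale, with si-NC subtracted from si-*DRAIC*2. A gene past a linear fold of 1.5, the threshold in the study's methods, is called higher or lower. Signals ran from 2.08 to 18.2, and the median difference of the named genes was −0.0097 with an SD of 0.37. No row was named *DRAIC*, so the knockdown could not be checked on its target in these arrays. By RT-qPCR, the study reports lower *DRAIC* with this siRNA and with another against *DRAIC*. The other siRNA was not put on arrays, so its effect on these genes was not tested. All 14 measured neuroendocrine markers had a mean log2 signal above 5.996, the 95th percentile of 494 genes from families that such cells are presumed not to express, as did 8 of 10 epithelial markers. Of 10 lung epithelial markers, 3 lay above that level (*FOXJ1*, *SFTPD* and *NKX2-1*), while the surfactant genes *SFTPA1*, *SFTPB* and *SFTPC* and the protease gene *NAPSA* did not. Of the markers of other cell types, 2 of 9 for fibroblasts, 1 of 9 for leukocytes and 2 of 8 for endothelium lay above it.

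Among the stress regulators, *DDIT3* was higher in si-*DRAIC*2, and none of the other 8 measured members passed 1.5-fold in either direction. The 9 differences ran from −0.55 for *EIF2AK3* to 0.77 for *DDIT3*, with a median of −0.045. Of all named genes, 4.99% were called higher and 5.96% lower, and of the brighter ones, whose mean log2 signal reached 6.99 (the median of all rows) or more, 3.61% were called higher and 4.77% lower. Since the members were picked with these signals known, nothing is read from 1 call in 9. The differences of 7 of the 9 members were within 0.25 of 0 on the log2 scale, as were 57.9% of the named genes at or above the median signal.

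*DDIT3* encodes CHOP, a bZIP transcription factor that pairs with C/EBP proteins and acts late in the stress response. The log2 signal went from 9.59 (si-NC) to 10.36 (si-*DRAIC*2), which is a difference of 0.77 and a fold of 1.70. Among the 500 named genes nearest to it in mean signal, whose differences had an SD of 0.35, 99.0% had a smaller value, and it ranked 348 of the 17687 named genes from the highest difference. The RefSeq table of GRCh38.p14 places 3 other loci over *DDIT3*, of which LOC128125814 lies wholly inside it and *MARS1* meets it at the end. *MARS1* has no named row. Whether the probes of the *DDIT3* row tell these loci apart is not given in the sources used here.

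**Figure D1:**
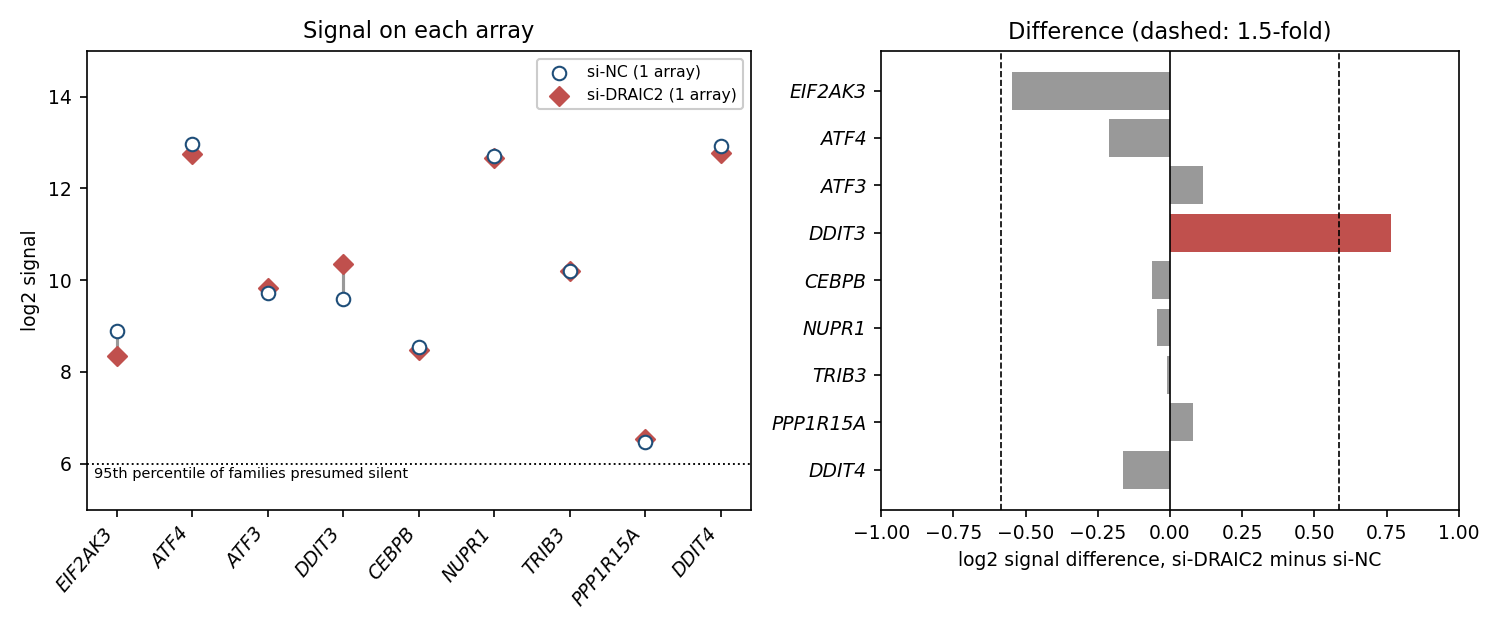
Log2 signals of the 9 measured stress regulators on each array (left; open circles si-NC, diamonds si-DRAIC2, 1 array each, no error bars possible; the dotted line marks a log2 signal of 5.996) and the log2 signal difference, si-DRAIC2 minus si-NC (right; dashed lines mark 1.5-fold). *DDIT3* (0.77) is the bar past a dashed line, and *EIF2AK3* (−0.55) ends just short of one.

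The other end of the range was *EIF2AK3*, which encodes PERK, the kinase that phosphorylates eIF2 when proteins misfold in the endoplasmic reticulum. The log2 signal went from 8.90 (si-NC) to 8.35 (si-*DRAIC*2). This difference of −0.55, or 1.46-fold, did not pass the threshold. Of the 500 genes nearest in signal, 10.4% had a lower value. *DDIT3* and *EIF2AK3* thus moved apart by 1.31 on the log2 scale. This is the range of the members, so a gap follows from picking its ends, and nothing more is read from it. The ratio of *DDIT3* to *EIF2AK3* signal was 2.48-fold larger in si-*DRAIC*2, a measure in which any scaling of the whole array cancels. With 1 array per condition, the pairs of signals most like theirs carry little information. By Euclidean distance over the 2 arrays, *DDIT3* lay nearest to *MBNL2* (distance 0.046), *ATP1B3* (0.058) and *CDHR3* (0.11), and *EIF2AK3* to *CCHCR1* (0.034), *TUB* (0.045) and *GABRA3* (0.051).

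The promoters of these genes are shown because *DDIT3* and *EIF2AK3* marked the ends of the range. Sequences are from RefSeq, GRCh38.p14, 5′ to 3′ on the strand of the gene, and hold the 250 bases before the annotated start. Capitals mark matches to the motifs searched. The *DDIT3* stretch is chr12:57520515-57520764 on the minus strand, and the *EIF2AK3* stretch is chr2:88627465-88627714 on the minus strand.
DDIT3: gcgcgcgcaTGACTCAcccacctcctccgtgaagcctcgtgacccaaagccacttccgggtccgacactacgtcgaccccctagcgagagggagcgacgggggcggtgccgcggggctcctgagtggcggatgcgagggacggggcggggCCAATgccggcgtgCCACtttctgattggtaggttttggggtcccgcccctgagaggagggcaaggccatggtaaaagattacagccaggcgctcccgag
EIF2AK3: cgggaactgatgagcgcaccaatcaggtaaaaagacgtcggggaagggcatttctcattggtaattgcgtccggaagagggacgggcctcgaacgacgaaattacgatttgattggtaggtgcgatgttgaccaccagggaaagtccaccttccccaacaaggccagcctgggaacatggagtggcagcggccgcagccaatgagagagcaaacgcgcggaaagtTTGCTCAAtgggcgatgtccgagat

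In the *DDIT3* stretch, the capitals are an AP-1 motif, TGACTCA, whose first base lies 241 bases before the start, and a core of the endoplasmic reticulum stress element, CCAAT followed after 9 bases by CCAC, which begins 100 bases before the start. In the *EIF2AK3* stretch they are a C/EBP motif, 25 bases before the start. In all, 5 motifs were searched on both strands of 300-base windows (250 bases before to 50 after a start), of which the table holds 35116, 17 of them for 9 of the 10 members. *NUPR1* was not among these. The motif TGATGNAA, bound by ATF4 with C/EBP proteins, was found in 3.62% of all windows and in 1 of the members' windows. The cAMP response element TGACGTCA was found in 1.85% of all windows and in 1 of the members'. The stress element core was found in 0.316% of all windows and in both windows of *DDIT3*, which overlap and hold the same site. The AP-1 motif TGANTCA stood in 7.71% and the C/EBP motif TTGCNNAA in 10.5% of all windows, and in 3 and 5 of the members'. No matches overlapped one another in these windows. A match describes letters and not a bound factor, and windows of this length leave out more distant elements.

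Of the transcription factors, *ATF4* itself went from a log2 signal of 12.97 (si-NC) to 12.76 (si-*DRAIC*2), 1.16-fold lower on the linear scale with a difference of −0.21. Of the genes nearest in signal, 15.4% had a lower value. ATF4 is controlled largely through translation of its mRNA, which arrays of total RNA do not read. *DDIT3* and *ATF4* therefore differed in direction, and the ratio of *DDIT3* to *ATF4* signal was 1.97-fold larger in si-*DRAIC*2 than in si-NC.

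*ATF3*, a stress-induced bZIP factor that often represses its targets, had log2 signals of 9.71 and 9.83 in si-NC and si-*DRAIC*2, a difference of 0.12. *CEBPB*, whose product C/EBPβ is a partner of both ATF4 and CHOP, had 8.55 and 8.48, a difference of −0.063. *NUPR1*, a small stress-induced chromatin protein, had 12.72 and 12.67, a difference of −0.045. These 3 genes fell between percentiles 40.6 and 67.2 when set among the differences of their 500 neighbours in signal. The ratio of *DDIT3* to *CEBPB* signal, a pair whose proteins bind each other, was 1.78-fold larger in si-*DRAIC*2. *CEBPB* hardly differed, so this ratio mostly restates the 1.70-fold of *DDIT3*.

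Neither the feedback regulators nor *DDIT4* came near the threshold. *TRIB3*, a pseudokinase that is induced by ATF4 and CHOP and dampens both, had log2 signals of 10.20 (si-NC) and 10.19 (si-*DRAIC*2), 1.007-fold apart, and the sign of this difference turned with the median difference of all rows set to 0 (0.00017) and after a loess on mean signal (0.023). *PPP1R15A*, which encodes GADD34, the subunit that directs a phosphatase to eIF2, had 6.47 and 6.54, a difference of 0.078. Its mean signal was below the median of all rows, unlike that of the other 8, and only a little above the level of the presumed silent families. *DDIT4*, which encodes the mTORC1 inhibitor REDD1, had 12.93 and 12.77, a difference of −0.16 or 1.12-fold. *TRIB3* and *PPP1R15A* are both known CHOP targets, and the ratios of *DDIT3* to their signals were 1.71-fold and 1.61-fold larger in si-*DRAIC*2. As the signals of *TRIB3* and *PPP1R15A* were nearly equal on both arrays, these ratios mostly restate the 1.70-fold of *DDIT3*.

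**Figure D2:**
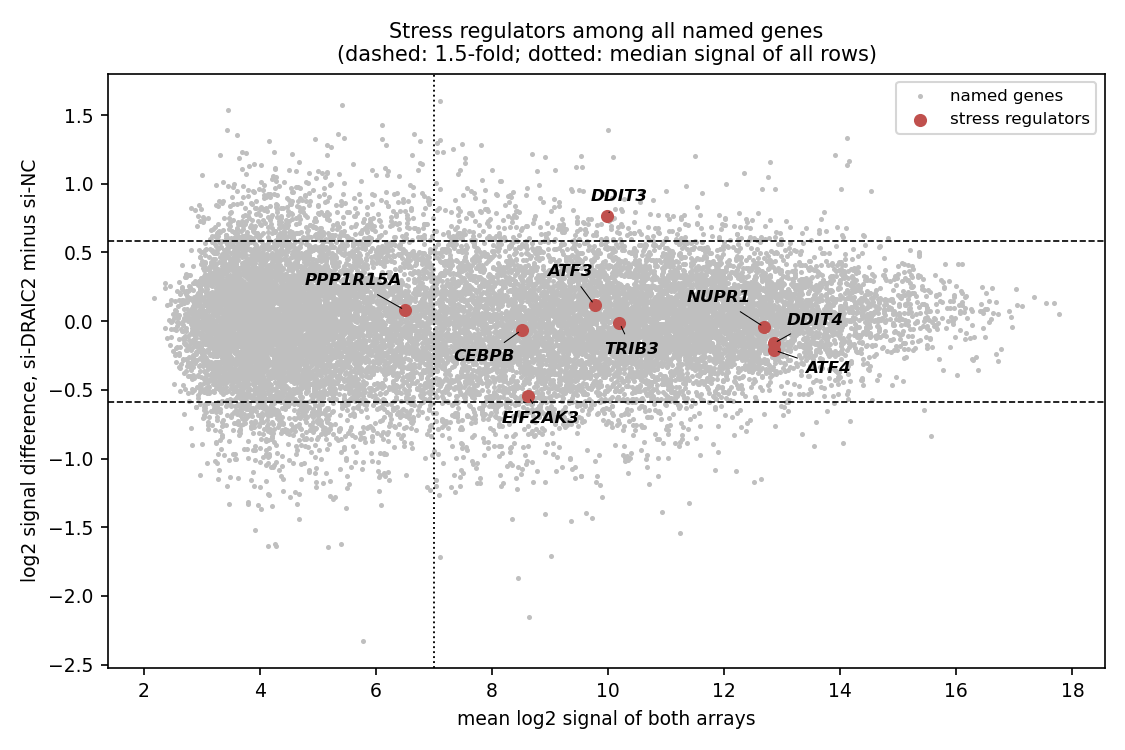
Difference in log2 signal (si-DRAIC2 minus si-NC) against the mean log2 signal of both arrays for the 17687 named genes (grey points), with the 9 measured stress regulators in red, dashed lines at 1.5-fold and a dotted line at the median signal of all rows. *DDIT3* is the red point beyond a dashed line, 8 of the 9 lie right of the dotted line, and *PPP1R15A* lies left of it.

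The sequences of *PPP1R15A* and *ATF3* are shown for the motifs that these members carry near their starts, and that of *CHAC1* as the target gene farthest from 0 below. Each is a stretch of 60 bases on the plus strand with the match in capitals, from chr19:48872337-48872396 for *PPP1R15A*, chr1:212565190-212565249 for *ATF3* (before the first of its annotated starts) and chr15:40953236-40953295 for *CHAC1*.
PPP1R15A: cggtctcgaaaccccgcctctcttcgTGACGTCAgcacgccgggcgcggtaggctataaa
ATF3: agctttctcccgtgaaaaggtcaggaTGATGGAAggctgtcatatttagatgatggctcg
CHAC1: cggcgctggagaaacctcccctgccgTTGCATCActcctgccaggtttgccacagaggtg

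The *PPP1R15A* match is the cAMP response element, 58 bases before the start. The *ATF3* match is TGATGGAA, 191 bases before the start, and the *CHAC1* match is TTGCATCA, the same motif on the other strand, 209 bases before the start. *ATF3* and *CHAC1* are known ATF4 targets in human cells. *CHAC1* was added for its difference, and the motif was found in 3.62% of all windows, so its presence here does not single out such targets. On the arrays, *ATF3* was at 1.08-fold and *CHAC1*, a glutathione-degrading enzyme gene, was 4.44-fold lower in si-*DRAIC*2.

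Upstream of ATF4, the other eIF2 kinases did not pass 1.5-fold. *EIF2AK4* (GCN2, which senses uncharged tRNA) had a difference of −0.40, from 9.99 to 9.59. *EIF2AK2* (PKR, which senses double-stranded RNA) had −0.27, from 13.79 to 13.52, and *EIF2AK1* (HRI, which senses heme and mitochondrial stress) had 0.19, from 14.52 to 14.71. Signals of 3 of the 4 kinases, *EIF2AK3* among them, were thus below those of si-NC. In a list of 21 measured genes of eIF2, its exchange factor, kinases and phosphatase other than the members, none was higher and *DELE1* was lower. All 21 lay at or above the median signal, where 3.61% of named genes were called higher and 4.77% lower, so this count is near the background. *DELE1* encodes the messenger that carries mitochondrial stress to HRI, and it went from a log2 signal of 8.17 (si-NC) to 7.15 (si-*DRAIC*2), or 2.02-fold lower. *OMA1*, the protease that cleaves DELE1, had a difference of 0.32. The phosphatase genes *PPP1CA* (−0.57) and *PPP1R15B* (−0.44), the constitutive relative of *PPP1R15A*, did not pass the threshold as deposited. After the loess, *PPP1CA* (−0.59) did, which made 2 lower genes of the list. Subunits of eIF2 and of its exchange factor eIF2B lay between −0.18 and 0.18. The median of the list was −0.068.

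Downstream, few known targets of ATF4 and CHOP passed 1.5-fold, about as few as among named genes of like signal, and those that did went both ways. The list held 61 genes, of which 58 were measured. Of these, 1 was higher and 3 were lower, and 54 lay within 1.5-fold. All 4 lay at or above the median signal, where 50 of the list lie, so that the count compares with 3.61% higher and 4.77% lower of named genes there. This count is near the background, and nothing is read from it. The median of the list was −0.088, and 36 differences were below 0 and 22 above.

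The gene called higher was *PSAT1*, an enzyme of serine synthesis, from 13.54 (si-NC) to 14.68 (si-*DRAIC*2), or 2.20-fold. The other enzymes of that pathway did not share it. *PHGDH* had −0.057 and *PSPH* −0.18, so the ratio of *PSAT1* to *PHGDH* signal was 2.29-fold larger in si-*DRAIC*2. The 3 called lower were *CHAC1*, from 9.71 to 7.56 (−2.15), *INHBE*, which encodes a secreted activin subunit, from 8.33 to 7.14 (−1.18), and *SLC7A11*, the cystine and glutamate exchanger gene, from 13.22 to 12.07 (−1.15). *DDIT3* and *CHAC1*, a gene known to lie downstream of both ATF4 and CHOP, had signals that moved apart by 2.92 on the log2 scale.

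By role, the 12 measured enzymes of amino acid and folate metabolism had a median difference of −0.089, and *ASNS*, which encodes asparagine synthetase, had −0.28, from 13.67 to 13.39. The 9 amino acid transporters had a median of −0.080, with *SLC1A4* at −0.55 and *SLC7A5* at −0.21. The 12 genes of tRNA charging and export had a median of −0.038 and ran from −0.35 (*LARS1*) to 0.37 (*NARS1*), with none past 1.5-fold. Of 6 secreted factors, *GDF15* had −0.52 and *VEGFA* 0.25. The 6 autophagy genes had a median of −0.086, with *SQSTM1* at −0.12 and *ATG5* at 0.38. The 2 measured apoptosis genes, *BCL2L11* (0.097) and *TNFRSF10B* (0.31), the latter a CHOP target, did not pass the threshold.

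The remaining targets had a median of −0.24 over 11 genes. *KLHL24* (−0.58) ended just inside the threshold, and *SESN2* (−0.43) and *HERPUD1* (−0.39) were farther from it. *ERO1A*, an oxidase of the endoplasmic reticulum that CHOP induces, had 0.49, from 15.12 to 15.61.

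**Figure D3:**
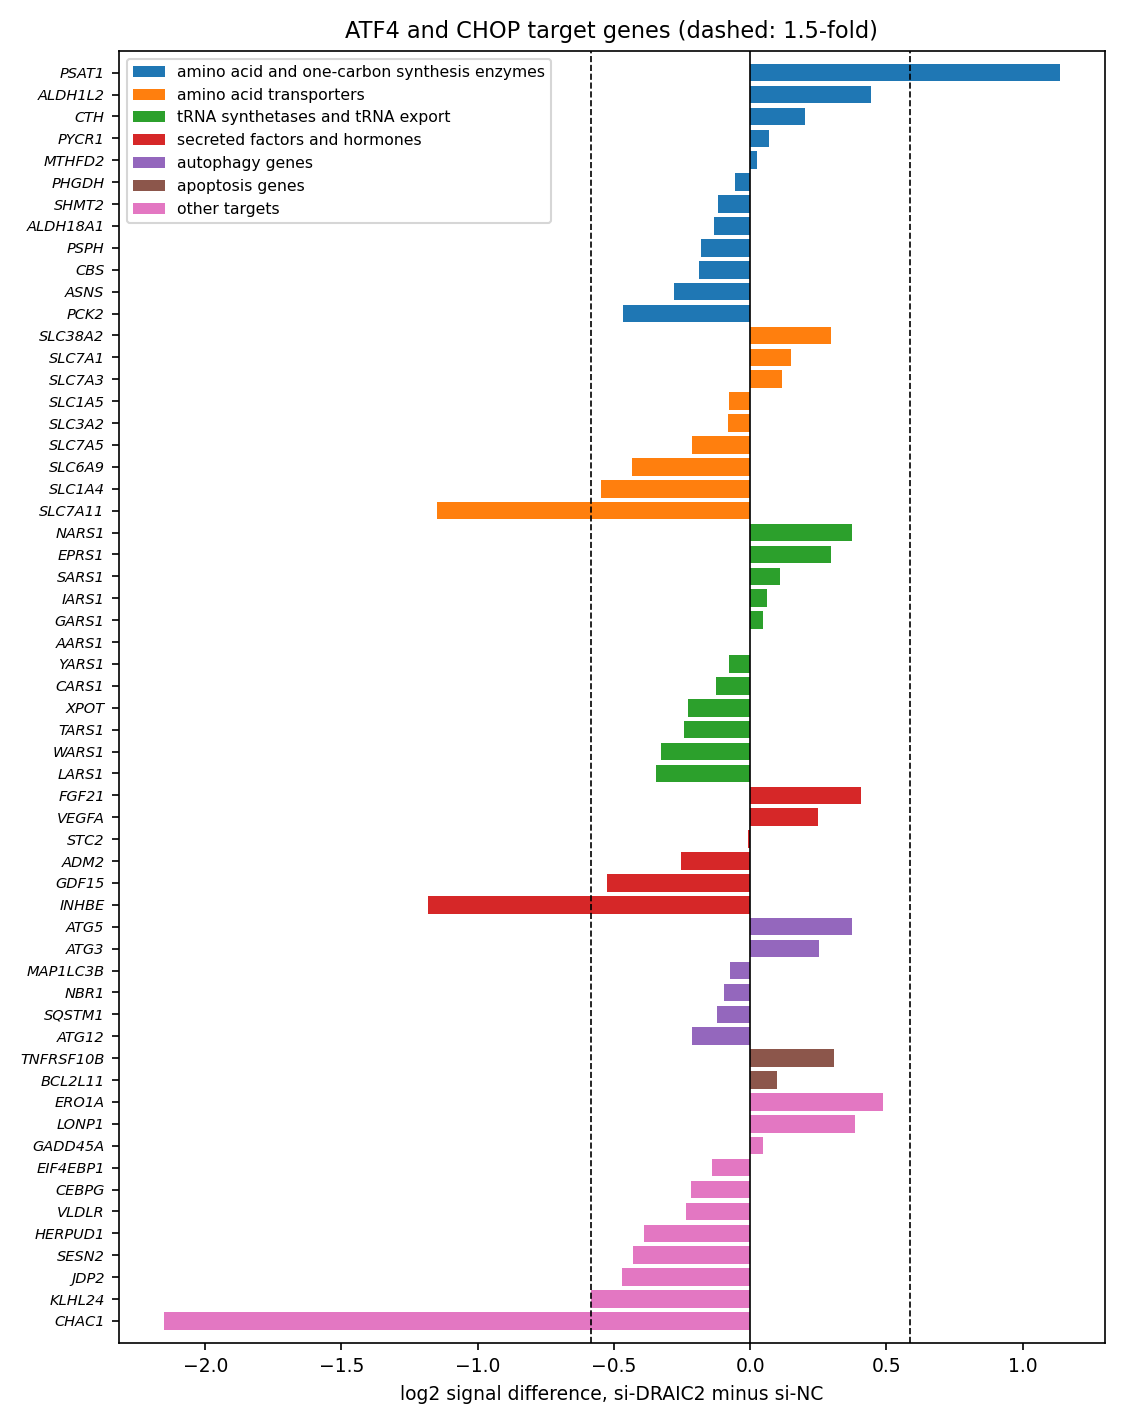
Difference in log2 signal (si-DRAIC2 minus si-NC) of the 58 measured ATF4 and CHOP target genes, grouped by role (colours) and ordered within each role, with 1 array per condition and dashed lines at 1.5-fold. *PSAT1* (1.14) extends past the right line, and *CHAC1* (−2.15), *INHBE* (−1.18) and *SLC7A11* (−1.15) past the left.

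The other branches of the unfolded protein response, through IRE1 and ATF6, were described from 34 measured genes. Of these, 2 were higher and 3 lower, with a median of −0.079, beside 4.99% higher and 5.96% lower of all named genes. At or above the median signal lay 31 of them, of which 2 were higher and 2 lower, beside 3.61% and 4.77% of named genes there. Lower were *FICD* (−1.72), which encodes a BiP-modifying enzyme, and *DERL2* (−0.88), a channel component for the export of misfolded proteins, and *EDEM1* (−1.36), a lectin of the same route. The mean signal of *EDEM1* was below the level of the presumed silent families, and its difference was −0.79 with 32 added to both linear signals. Higher were *SDF2L1* (0.69) and *MANF* (0.69), which both act with BiP in the endoplasmic reticulum. *XBP1*, the transcription factor spliced by IRE1, went from 13.39 to 12.81, a difference of −0.58 that ended just inside the threshold and passed it after the loess (−0.61), which made 4 lower genes of the list. The sensor genes *ERN1* (IRE1, −0.31) and *ATF6* (0.018) and the BiP gene *HSPA5* (−0.10) did not pass it. Of the 3 sensor genes of the unfolded protein response, *EIF2AK3* thus had the difference farthest from 0, with −0.55.

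Relatives of the members by family gave the following values. Of all named genes, 4.99% were called higher and 5.96% lower, and nothing is read from the counts in these families. Of 20 measured CREB, ATF and C/EBP genes, *CEBPD* was higher (0.60, from 3.56 to 4.17) and *BATF* lower (−0.71, from 6.61 to 5.90), both below the median signal and *CEBPD* below the level of the presumed silent families. *CEBPG*, a C/EBP partner of ATF4, had −0.22, and *CREB1* had 0.40. Of 22 other bZIP genes, which include AP-1, MAF and NRF factors, *BACH2* was higher (0.78) and *MAF* lower (−0.82), both below the median signal. *JUN* (−0.057) and *NFE2L2* (0.073), which encodes NRF2, had nearly equal signals on both arrays. Of 11 relatives of the Tribbles, GADD and NUPR members, *GADD45G* was lower (−1.87, from 9.38 to 7.51), whereas *GADD45A* (0.047), *GADD45B* (0.012) and *TRIB1* (0.19) were not called.

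For *DDIT4*, the genes through which it and the sestrins restrain mTORC1 were listed. Of 21 measured genes, 3 were higher and none lower, beside 4.99% and 5.96% of all named genes. All 3 lay at or above the median signal, where 3.61% of named genes were called higher and 4.77% lower. *SESN3*, a sestrin gene, had 1.30, from 6.41 to 7.71, *TBC1D7*, a subunit of the TSC complex on which REDD1 acts, had 0.63, and *DEPTOR*, which encodes an mTOR-binding inhibitor, had 0.61. With 32 added to both linear signals, *TBC1D7* and *DEPTOR* were no longer called, which left 1. *TSC1* (−0.45) and *TSC2* (−0.35) did not pass the threshold. The median was 0.12 over the list and 0.042 over the 18 genes at or above the median signal, beside −0.0074 for all named genes there.

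**Figure D4:**
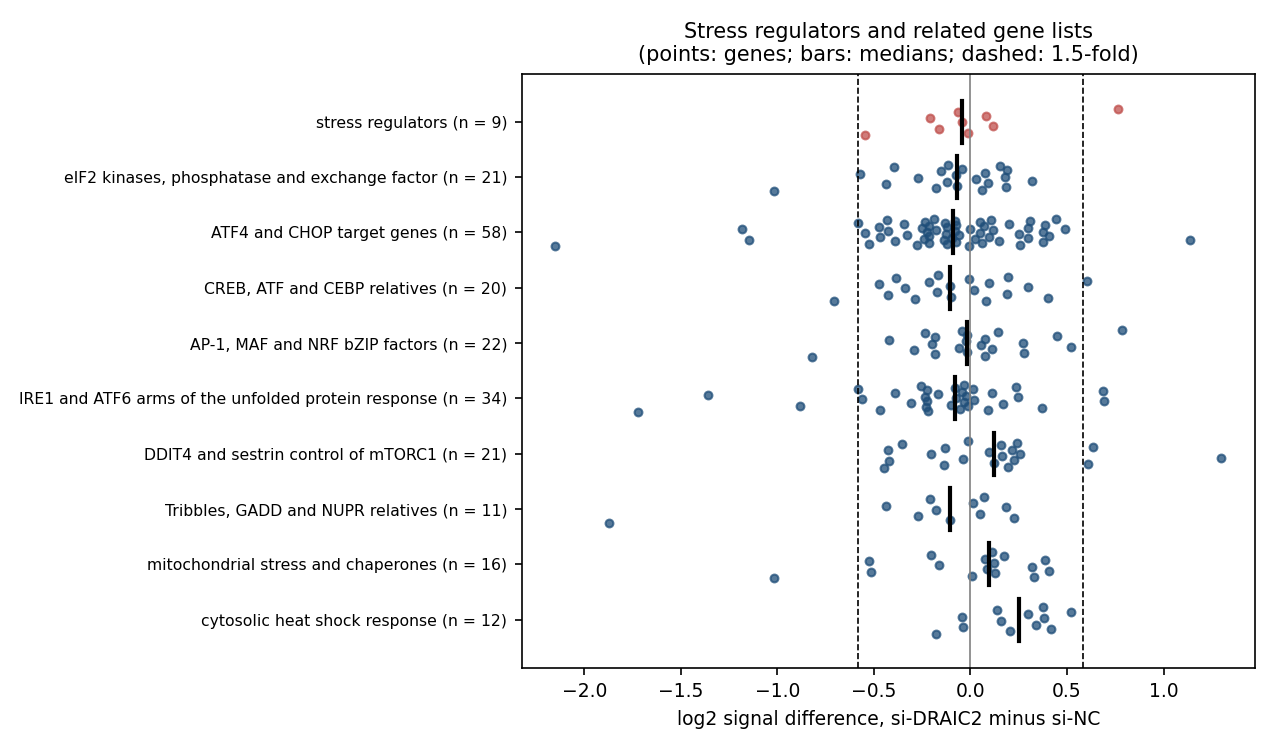
Difference in log2 signal (si-DRAIC2 minus si-NC) of each measured gene (points) in the stress regulators (red) and 9 related lists (blue), with list medians as black bars and dashed lines at 1.5-fold. The points of the stress regulators run from −0.55 to 0.77 around a median of −0.045, and the target list holds *CHAC1* at −2.15 and *PSAT1* at 1.14.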

How the data were processed

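Total RNA of VMRC-LCD cells was hybridised to 1 Human Clariom S array per condition (si-NC, si-*DRAIC*2). The deposited log2 signals were computed by the authors from the scanner's CEL files (Transcriptome Analysis Console, SST-RMA: background correction, then quantile normalization and summarization). Software version, annotation build and any filters: not given in the sources used here. Quantile normalization would hide a change of equal size in all transcripts. Signals were used as deposited, and both columns were mapped to samples.

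Of 21448 rows, 17709 carry a gene symbol in the platform annotation, and 3739 are unnamed here. Symbols were checked by gene identifier against RefSeq (GRCh38.p14), and none changed. Rows of 1 symbol were averaged, which concerned 20 symbols and no member. Calls use a linear fold change past 1.5. With 1 array per condition there is no test and no p-value, and so few arrays limit how precise any value is. The code of the calling step was run on simulated data with planted differences and less spread than these arrays show. That run checks the arithmetic and says nothing about the error of any call made here.

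The members, the gene lists and the alternatives were chosen with earlier results of these data known. All members are named, and from each list those past 1.5-fold (up to 5 per direction, brighter ones first), the eIF2 kinases and the reference genes. Other genes were named after their values were seen, to show the list's range or a known role. The grouping of target genes by role was also made then. Alternatives were the median difference of all rows set to 0, a loess on mean signal (span 0.3), 32 added to both linear signals, a 2-fold threshold, 2 filters on signal, and the brightest row per symbol. Python 3.11.15, numpy 2.4.6, pandas 2.3.3, statsmodels 0.14.6 and matplotlib 3.10.9 were used.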

Additional observations from a re-analysis of the deposited data

How the results depend on the processing

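The call of *DDIT3* as higher was kept under 6 of the 7 alternatives, with differences from 0.74 to 0.80. The 2 filters on signal and the brightest row could not change it, because *DDIT3* has 1 row, which lies above both signal levels. At a 2-fold threshold no stress regulator was called, so the number of higher members was 0 instead of 1. No member was called lower under any of the 7 alternatives, and *EIF2AK3* ran from −0.55 to −0.50. The median of the members lay between −0.054 and −0.019. Across the listed genes, 30 were called, a number given only as the base for the counts that follow. Of all named genes, 4.99% were called higher and 5.96% lower. After adding 32 to each linear signal, which shrinks differences between low signals, 17 of the 30 kept the call. At a 2-fold threshold 11 did, and the 19 lost included *DERL2*, *SDF2L1*, *MANF*, *BACH2*, *MAF*, *SCG5* and *DLL3*. Calls were also gained, by *CDKN1A* with the median difference set to 0 (0.59) and by *CDKN1A* (0.62), *PPP1CA* (−0.59) and *XBP1* (−0.61) after the loess. Those that lost it with 32 added included *MANF*, *TBC1D7* and *DEPTOR* of the genes named above, and also *CEBPD* and *BATF*. The 3 lower target genes and *PSAT1* kept their calls under the 7 alternatives. The filters on signal left their values as they were, since these genes lie above both signal levels. No paired analysis was possible because each condition has 1 array, and no array could be left out. The signal of *PPP1R15A* lies close to that of presumed silent families, which limits what its difference can show.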

Other observations

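Other stress programmes were read on the same arrays. Of 12 measured genes of the cytosolic heat shock response, none passed 1.5-fold, but 9 had differences above 0 and the median was 0.25, beside −0.0074 for all named genes at or above the median signal. The highest was *HSPB1*, a small heat shock protein gene, with 0.52, from 14.95 to 15.47, followed by *HSP90AA1* with 0.42. These genes are bright, and after the loess on mean signal the median of the list was 0.18. The median of the reference genes, also bright, moved from 0.080 to −0.0021 with the loess. Of 16 genes of mitochondrial stress and chaperones, *DELE1* was the one past 1.5-fold, beside 4.99% higher and 5.96% lower of all named genes. At or above the median signal lay 15 of the 16, *DELE1* among them, beside 3.61% higher and 4.77% lower of named genes there. The median of that list was 0.098, and 0.051 after the loess.

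Of 19 measured p53 target genes, *ZMAT3* was higher (1.39, from 9.30 to 10.69) and none was lower, beside 4.99% higher and 5.96% lower of all named genes. The median was −0.077, with *CDKN1A* at 0.58. *CDKN1A* was called higher as well, which made 2, with the median difference set to 0 and after the loess. Of 22 interferon response genes, *IFI27* (1.02) and *OAS1* (0.71) were higher, beside the same 4.99% of all named genes. Both lay below the level of the presumed silent families, and the median of the list was −0.053. Of 10 measured reference genes none passed 1.5-fold, and they ran from −0.54 for *GUSB* to 0.51 for *PGK1*, with *HPRT1* at 0.40, *TBP* at −0.19, *GAPDH* at 0.13, *B2M* at 0.40, *SDHA* at 0.17, *YWHAZ* at −0.051, *PPIA* at 0.026 and *ACTB* at −0.0090. In mean log2 signal, *GUSB* (9.13) and *TBP* (9.72) lay between *EIF2AK3* (8.63) and *DDIT3* (9.98), and the other reference genes were brighter. The difference of *GUSB* was close to that of *EIF2AK3* (−0.55). With 1 array per condition, the range of the reference genes is no measure of error for these members.

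Among the cell type markers, the neuroendocrine gene *SCG5* was higher (0.79) and *DLL3*, a Notch ligand gene, lower (−0.67). The fibroblast markers *FAP* and *PDGFRB*, the leukocyte markers *CD3D*, *FCGR3A* and *MS4A1* and the endothelial marker *CLDN5* were also called lower, all with mean signals below the median of all rows and, except for *CLDN5*, below the level of the presumed silent families. All 6 lost their calls with 32 added to both linear signals, and *CLDN5* also with the median difference set to 0 or after the loess. None of the 10 epithelial or 10 lung epithelial markers passed 1.5-fold. Of all named genes, 4.99% were called higher and 5.96% lower, and nothing is read from the counts of these marker lists.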
